A study of Mus musculus with 23 samples.

Results

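The genes described are a set of 40 cell cycle and DNA replication genes, out of 35019 gene symbols on the array. They were chosen by gene symbol for their known roles, with earlier results of these data known. They comprise 15 genes of S phase, 24 genes of G2 and mitosis, and the G1 cyclin gene Ccnd1. Each was represented by its brightest probe, and 38 of the 40 were tested. Ccne2, which encodes a second E-type cyclin, was well above background on 1 of 23 arrays, and Aurkb, which encodes an Aurora kinase, on 0 arrays, so no difference is given for either. Of the 38 genes tested, 36 were well above background on every array, Ttk was so on 22 arrays and Cenpf on 21.

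The RNA came from 23 samples of circumvallate papilla, a taste bud-bearing structure of the rear tongue, from male C57Bl6j mice and was hybridised to 1-colour Agilent arrays. The labels leave the name DIO-R undefined, and its 8 samples are taken to be those of DIO mice restricted to 60% of the energy eaten when feeding was free. The 8 DIO samples came from mice with free access to an obesogenic high-fat diet with much saturated fat. The 7 Lean samples came from mice with free access to a laboratory chow containing 3% fat by weight. The labels name no transgene and give neither the age of the mice nor how long they were fed. All 12 taste cell markers examined were well above background on every array, and no array had a saturated spot. The arrays lay on 3 slides that each held all groups, pairs of arrays correlated between 0.960 and 0.991 over genes, and 67.9% to 79.1% of the spots of an array were well above background.

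Taste cells and the keratinocytes around them are short-lived and are replaced from dividing progenitors in the basal layer of the papilla epithelium. In a dividing cell, cyclin D and its kinases release E2F factors from the retinoblastoma protein, and E2F factors then drive the genes that license origins and copy DNA. A later wave, driven through MuvB complexes with B-Myb and FOXM1 at elements named CHR, supplies the cyclins, kinases and kinetochore proteins of mitosis.

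The promoters of the set are shown because the S phase and the mitosis genes, regulated through different elements, were compared apart. RefSeq windows of build GRCm38.p6, covering 250 bases before to 50 bases after a gene's start, were found for 13 of the 15 S phase genes and 19 of the 24 mitosis genes. They were searched on both strands for the E2F letters TTTCCCGC, TTTGGCGC, TTTCGCGC and TTTGCCGC, for the CHR letters TTTGAA and TTCGAA, and for the letters CCAAT. An E2F match lay in 6 of 13 S phase windows (46.2%), in 1 of 19 mitosis windows (5.26%) and in 2.32% of all 27025 windows. A CHR match lay in 2 of 13 S phase windows (15.4%), in 15 of 19 mitosis windows (78.9%) and in 19.4% of all windows. CCAAT matches were frequent in both groups, in 8 of 13 S phase windows (61.5%) and 17 of 19 mitosis windows (89.5%), against 37.9% of all windows. CHR and CCAAT occurred together in 15 mitosis windows (78.9%) and in 7.7% of all windows. The 6 S phase genes with an E2F match were Mcm3, Mcm5, Mcm6, Mcm7, Cdc6 and Cdt1, and the mitosis gene with one was Cdk1. A match is a description of the letters and not a binding site, and the lack of a CHR match in Ccnb1 or of an E2F match in E2f1 says only that these letters are not in the window.

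The last 180 bases before the start are printed below, 5′ to 3′ on the gene's strand, for 2 S phase genes with E2F matches, for 2 mitosis genes with CHR and CCAAT matches, and for Cdk1, which has all 3 motifs. They were picked after the matches were seen, and capitals mark every match on either strand. In Mcm6 and Mcm5 a pair of E2F matches on opposite strands overlap.
Mcm6 (chr1:128359706-128359885, minus strand): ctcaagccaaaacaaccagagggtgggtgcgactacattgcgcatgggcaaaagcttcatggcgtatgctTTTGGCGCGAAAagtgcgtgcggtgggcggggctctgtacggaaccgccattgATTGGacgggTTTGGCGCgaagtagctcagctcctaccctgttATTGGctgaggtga
Mcm5 (chr8:75109329-75109508, plus strand): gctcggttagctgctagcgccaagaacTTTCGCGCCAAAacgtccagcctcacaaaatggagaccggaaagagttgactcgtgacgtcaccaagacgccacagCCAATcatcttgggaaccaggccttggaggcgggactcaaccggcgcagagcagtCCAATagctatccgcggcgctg
Cdc20 (chr4:118437344-118437523, minus strand): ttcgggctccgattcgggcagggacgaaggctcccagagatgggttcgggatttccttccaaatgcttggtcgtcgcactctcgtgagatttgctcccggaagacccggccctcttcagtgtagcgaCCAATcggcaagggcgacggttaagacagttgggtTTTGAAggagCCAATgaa
Ube2c (chr2:164769749-164769928, plus strand): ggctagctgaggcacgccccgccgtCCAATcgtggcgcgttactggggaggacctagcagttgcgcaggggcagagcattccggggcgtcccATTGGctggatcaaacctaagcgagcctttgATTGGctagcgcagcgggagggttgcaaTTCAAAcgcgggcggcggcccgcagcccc
Cdk1 (chr10:69352913-69353092, minus strand): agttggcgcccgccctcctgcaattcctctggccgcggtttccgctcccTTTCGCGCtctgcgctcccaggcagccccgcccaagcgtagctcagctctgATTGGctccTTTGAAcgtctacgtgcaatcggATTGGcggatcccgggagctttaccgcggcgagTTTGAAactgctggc

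**Figure D1:**
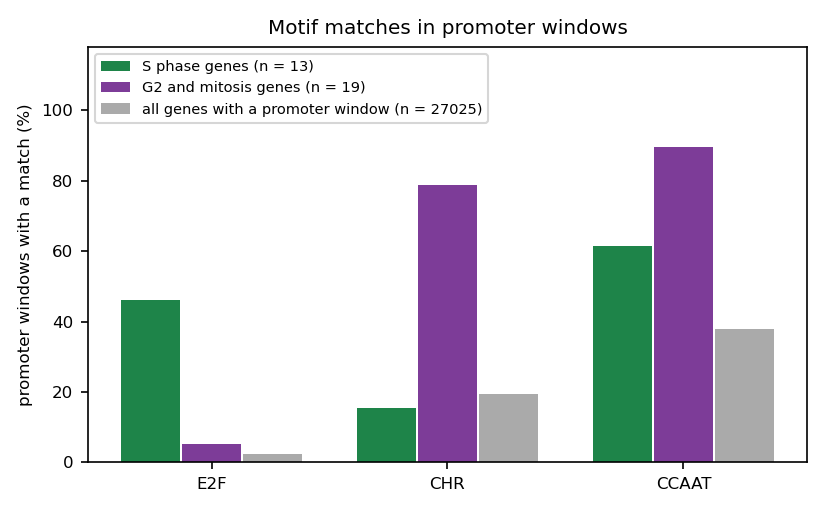
Share of promoter windows with a match to each motif, in percent, for 13 S phase genes, 19 G2 and mitosis genes and all 27025 windows. E2F matches lay in 46.2% of S phase windows and 5.26% of mitosis windows, and CHR matches in 15.4% and 78.9%.

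In DIO papillae, nearly the whole set lay above Lean, the S phase genes by a median log2 difference of 0.42 and the mitosis genes by 0.28, while the median over all genes was -0.04. Of the S phase genes 13 of 14 and of the mitosis genes 22 of 23 had a higher mean in DIO, against 41.1% of all genes, and Tyms and Cenpf were the 2 that were lower, against 58.9% of all genes. No gene of the set passed an adjusted p under 0.05 in the limma fit, which called 0.00353% of all 28365 genes. At an unadjusted p under 0.05, 11 S phase genes, 13 mitosis genes and Ccnd1 were higher and none lower, against 4.05% of all genes higher and 4.9% lower. Every DIO sample lay above every Lean sample in 1 gene of the set, Rrm2, against 0.074% of all genes, and the reverse held for no gene of the set, against 0.0458%. Without DIO sample 3 the count of 25 genes at an unadjusted p under 0.05 was 16.

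In DIO-R papillae, 23 of 23 tested mitosis genes had a lower mean than in DIO on their brightest probe, with a median log2 difference of -0.26, against 48.3% of all genes and a median of 0.01. Second probes for Cdk1 and Tpx2 were higher in DIO-R, by 0.34 and 0.39. The other probes for Birc5, Ccnb1, Cdca8, Foxm1, Mki67 and Ube2c were lower. The S phase genes had a median difference of 0.06, with 10 of 14 higher in DIO-R against 51.7% of all genes, and the median ran from 0.0045 without DIO sample 6 to 0.12 without DIO sample 3. No gene of the set passed the adjusted test, which called 0.0599% of all genes (0.0212% as higher). The samples of DIO-R and DIO overlapped in every gene of the set, while 0.0494% of all genes lay wholly above and 0.0388% wholly below. Unadjusted, 8 mitosis genes were lower (Cenpa, Ccnb1, Ccnb2, Foxm1, Ube2c, Kif20a, Cenpe and Cdc20) against 3.79% of all genes, and no gene was higher against 5.94%. That count of 8 depended on single arrays. It was 2 without DIO-R sample 10, 3 without DIO sample 1, 2 or 3, 4 without DIO sample 5 or DIO-R sample 4 or 6, and 5 without DIO-R sample 7. It was 13 without DIO-R sample 5 or 8 and 18 without DIO sample 6. The difference between the S phase and the mitosis shift was not tested.

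Set against Lean, DIO-R papillae were higher in all 14 tested S phase genes, with a median log2 difference of 0.49, while the mitosis genes had a median of 0.06, with 15 of 23 higher and 8 lower. That mitosis median was -0.0034 without Lean sample 10 and 0.13 without Lean sample 3. All genes had a median of -0.02, with 44.6% higher and 55.4% lower. The adjusted test called no gene of the set and 0.127% of all genes (0.0529% as higher). Unadjusted, 13 S phase genes, the mitosis gene Bub1 and Ccnd1 were higher, against 4.43% of all genes, and Cenpa was lower, against 4.52%. The lower count was 0 without DIO-R sample 6 or 10 or Lean sample 3, 2 without Lean sample 5 or 6, and 3 without DIO-R sample 8 or Lean sample 10. The 3 comparisons share samples, so they are not independent of one another. The labels do not say that each sample is a separate animal, so p-values measure the spread between these samples, part of which may be technical.

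**Figure D2:**
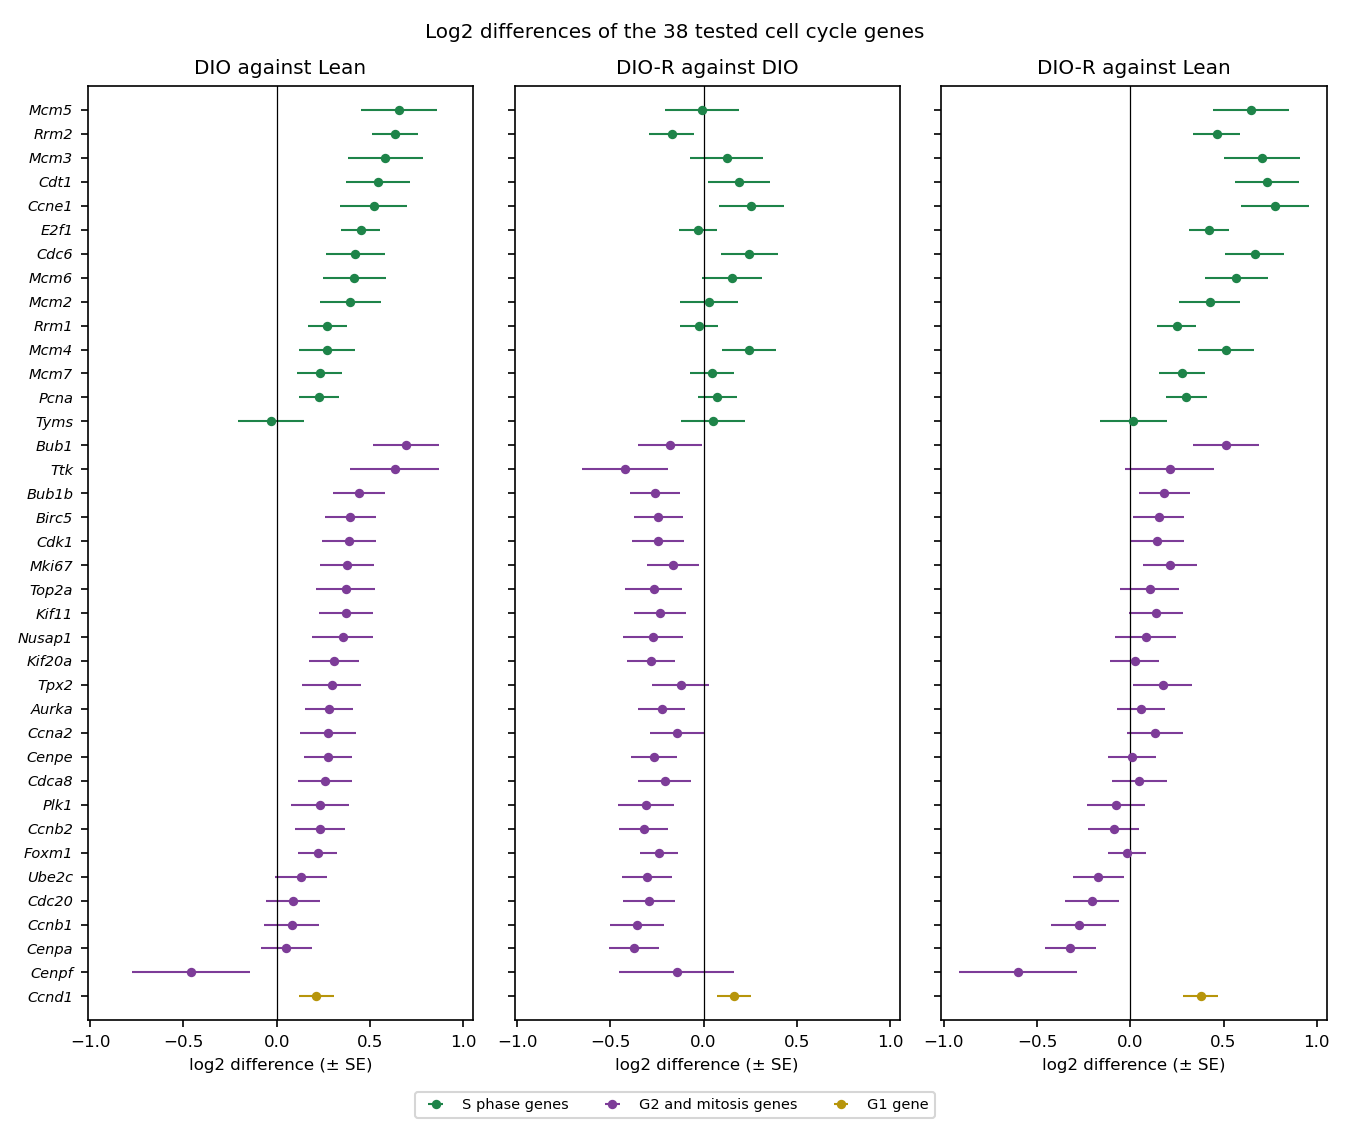
Log2 difference ± SE of each of the 38 tested genes in DIO against Lean, DIO-R against DIO and DIO-R against Lean. On the brightest probes, the 23 mitosis genes all lie below 0 in DIO-R against DIO, and the 14 S phase genes all lie above 0 in DIO-R against Lean.

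Each slide held 2 or 3 samples of each group, so the comparisons were repeated within slides, with no test. The S phase genes, and likewise the mitosis genes, tended to move together from sample to sample. The counts of genes on every slide are therefore not counts of independent observations. Within slides 1, 2 and 3, the S phase median in DIO against Lean was 0.39, 0.51 and 0.32, and 13 of 14 genes were higher on every slide, against 14.4% of all genes. The mitosis median of that comparison was 0.36, 0.51 and 0.01, with almost no difference on slide 3. In DIO-R against DIO the mitosis median was -0.44, -0.20 and -0.15, and 22 of 23 genes were lower on every slide, against 18.1% of all genes. In DIO-R against Lean the S phase median was 0.35, 0.75 and 0.30, with 13 of 14 genes higher on every slide against 13.9% of all genes, while the mitosis median was -0.07, 0.37 and -0.14.

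The spread over samples is shown by taking the genes of a group together. For each sample, the median deviation of a group's genes from their mean over the 23 arrays was taken. The S phase medians ran from -0.18 over 0.23 to 0.63 in DIO-R (lowest, median and highest sample), from -0.49 over 0.12 to 0.56 in DIO, and from -0.49 over -0.31 to -0.08 in Lean. Lean samples all lay below 0, overlapping the lower DIO-R and DIO samples. The mitosis medians ran from -0.33 over -0.11 to 0.19 in DIO-R, from -0.33 over 0.20 to 0.57 in DIO, and from -0.52 over -0.05 to 0.35 in Lean, so all groups overlapped.

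The S phase median minus the mitosis median, a description with no test, was -0.09, 0.31 and 0.57 in DIO-R (lowest, median and highest), -0.49, -0.04 and 0.11 in DIO and -0.43, -0.16 and 0.04 in Lean. It was above 0 in 6 of 8 DIO-R, 3 of 8 DIO and 1 of 7 Lean samples. DIO-R samples 6 and 10 each had 14 of 14 S phase genes above the mean of all arrays and 0 of 23 mitosis genes. The other DIO-R samples did not share this pattern. Samples 5 and 8 were high in both gene groups, with 13 S phase and 19 mitosis genes, and 13 and 21. Samples 3, 4 and 7 were low in both, with 2 and 7, 3 and 3, and 1 and 0. Sample 2 had 13 and 8. All 23 mitosis genes were above that mean in DIO sample 1, with 6 of 14 S phase genes, and in Lean sample 3, with 4 of 14. DIO sample 3 was high in both groups, with 13 and 23 genes above the mean, and DIO sample 6 low in both, with 3 and 0. In summed marker signal relative to the 75th percentile, DIO sample 3 had the highest summed basal keratinocyte signal of that group (690) and the lowest fibroblast signal (220), and DIO sample 6 the lowest basal keratinocyte signal (345) and the highest fibroblast signal (499). In DIO-R, sample 6 had the highest basal keratinocyte signal (716) and the lowest fibroblast signal (239), with 14 S phase and 0 mitosis genes above the mean. In Lean, sample 9 had the highest basal keratinocyte signal (650) and the lowest fibroblast signal (204), with 2 S phase and 13 mitosis genes above the mean. The part of these markers in the counts was not tested.

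**Figure D3:**
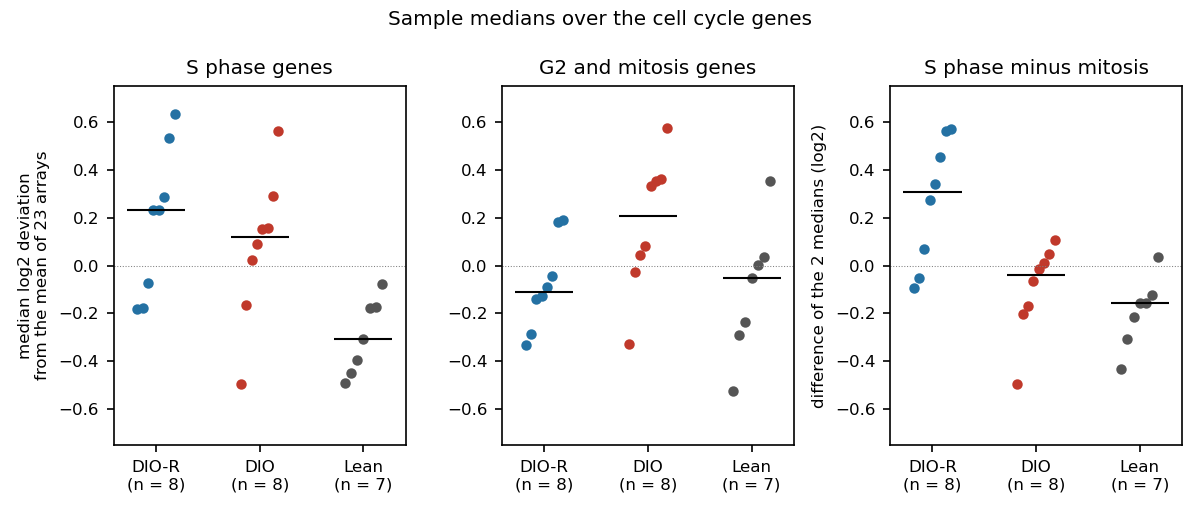
Median log2 deviation of each sample over the 14 S phase genes (left) and the 23 G2 and mitosis genes (middle) from the mean of 23 arrays, and their difference (right); points are samples and bars group medians. The difference is above 0 in 6 of 8 DIO-R, 3 of 8 DIO and 1 of 7 Lean samples.

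Markers of other cells also differed in level between the groups, and their part in the results was not tested. In bulk tissue, fewer cells of a type and less RNA per cell cannot be told apart. The marker counts stand beside these shares of all genes. In DIO against Lean 41.1% of all genes were higher and 58.9% lower, in DIO-R against DIO 51.7% and 48.3%. In DIO-R against Lean 44.6% were higher and 55.4% lower. Of 14 tested markers of differentiated keratinocytes, 0 were higher in DIO than in Lean (median -0.51) and 14 were higher in DIO-R than in DIO (median 0.38). In DIO-R against Lean 13 of these 14 were lower (median -0.15). Their summed signal, in units of the array's 75th percentile, spanned 1030 to 1978 in DIO-R, 634 to 1862 in DIO and 994 to 2522 in Lean. The 12 markers of basal keratinocytes and lingual progenitors, the layer that holds the dividing cells, had medians of -0.05 in DIO against Lean and 0.22 in DIO-R against DIO, where 12 of 12 were higher. In DIO-R against Lean 11 of 12 were higher (median 0.13). Their summed signal spanned 533 to 716 in DIO-R, 345 to 690 in DIO and 449 to 650 in Lean.

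Lymphocyte markers, of which 10 of 12 were tested, had medians of -0.02 in DIO against Lean and -0.17 in DIO-R against DIO, and summed to 5.72 to 7.16 in DIO-R, 5.66 to 9.67 in DIO and 5.77 to 9.12 in Lean. Ms4a1, a B cell marker, did not pass the filter on dim probes. All 9 fibroblast markers were higher in DIO than in Lean (median 0.49) and lower in DIO-R than in DIO (median -0.20), with sums of 239 to 453 in DIO-R, 220 to 499 in DIO and 204 to 426 in Lean. Of 12 macrophage and dendritic cell markers, 10 were higher in DIO than in Lean (median 0.26) and 10 lower in DIO-R than in DIO (median -0.33), with sums of 30.8 to 41.6 in DIO-R, 30.8 to 48.1 in DIO and 26.7 to 43.4 in Lean. The 5 tested of 8 erythroid markers had medians of 1.20 and -1.12 in those comparisons, with sums of 17.5 to 75.5 in DIO-R, 37.2 to 159 in DIO and 12.2 to 56.3 in Lean. All 8 muscle markers were lower in DIO-R than in DIO (median -0.59) and 7 of 8 lower than in Lean (median -0.59), with sums of 201 to 1142 in DIO-R, 578 to 1434 in DIO and 410 to 1648 in Lean. Of 12 taste cell markers, 10 were lower in DIO than in Lean (median -0.12), against 58.9% of all genes, and 9 higher in DIO-R than in DIO (median 0.20), against 51.7%. Their sums were 225 to 314 in DIO-R, 194 to 276 in DIO and 232 to 317 in Lean.

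Among the S phase genes, the licensing factors come first. Levels below are log2 signal relative to the array's 75th percentile, given as the lowest, median and highest sample of a group, and differences are log2 ± SE with the adjusted p of the limma fit. Cdt1, which loads the MCM helicase at origins (probe at mm9 chr8:125096893-125096952), lay at 0.87, 1.51 and 2.02 in DIO-R, at 0.53, 1.35 and 1.81 in DIO and at 0.40, 0.82 and 1.00 in Lean. Every DIO-R sample was above the Lean mean, with overlap only at the lower end. The differences were 0.73 ± 0.17 in DIO-R against Lean (1.66-fold, adjusted p = 0.109), 0.54 ± 0.17 in DIO against Lean (adjusted p = 0.327) and 0.19 ± 0.17 in DIO-R against DIO (adjusted p = 0.685). The last was 0.08 without DIO sample 6 and 0.11 without DIO-R sample 5.

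Cdc6, the ATPase that works with Cdt1, was a dim probe at -3.19, -2.70 and -2.14 in DIO-R, -3.60, -3.00 and -2.39 in DIO and -3.77, -3.37 and -3.09 in Lean. It was 0.67 ± 0.16 higher in DIO-R than in Lean (adjusted p = 0.119), and the groups overlapped. A dimmer second probe for Cdc6 differed by 1.37 in the same comparison. The 6 Mcm genes encode the subunits of the replicative helicase, and their DIO against Lean differences ran from 0.23 for Mcm7 to 0.66 for Mcm5. Mcm5 lay at 0.50, 1.26 and 1.78 in DIO-R, at 0.43, 1.16 and 1.89 in DIO and at 0.05, 0.59 and 0.98 in Lean. DIO-R and DIO samples covered the same range, with a difference of -0.01 and a 95% interval of -0.42 to 0.40. Mcm3 lay at 1.20, 1.75 and 2.28 in DIO-R, at 0.73, 1.58 and 2.30 in DIO and at 0.64, 0.96 and 1.37 in Lean, and both of its probes gave close differences in DIO against Lean (0.58 and 0.59). Mcm4, which had the smallest p of the S phase genes in DIO-R against DIO, lay at 1.86, 2.33 and 2.77 in DIO-R and at 1.50, 2.08 and 2.54 in DIO. It was 0.24 ± 0.14 higher in DIO-R (adjusted p = 0.566), with the groups overlapping over most of their range. Mcm2 and Mcm6 differed by 0.40 and 0.42 in DIO against Lean and by 0.42 and 0.57 in DIO-R against Lean.

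E2f1 encodes the factor that drives many of these genes (probe at mm9 chr2:154385798-154385857). It lay at -1.06, -0.75 and -0.26 in DIO-R, at -0.98, -0.64 and -0.54 in DIO and at -1.32, -1.18 and -0.90 in Lean. Its differences from Lean were 0.42 ± 0.11 in DIO-R (adjusted p = 0.153) and 0.45 ± 0.11 in DIO (adjusted p = 0.164), with 8 of 8 samples of each above the Lean mean. Ccne1, the cyclin that starts S phase with Cdk2, lay at -0.44, 0.12 and 0.58 in DIO-R, at -0.66, -0.23 and 0.33 in DIO and at -1.37, -0.55 and -0.21 in Lean. It had the largest S phase difference between DIO-R and Lean, 0.78 ± 0.18 (1.71-fold, adjusted p = 0.109), and 8 of 8 DIO-R samples were above the Lean mean. Against DIO, DIO-R was 0.26 ± 0.18 higher in Ccne1 (adjusted p = 0.61), with broad overlap.

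The estimates for the genes of nucleotide supply varied, and they were not tested against one another. Rrm2, the limiting subunit of ribonucleotide reductase (probe at mm9 chr12:25398824-25398883), lay at 0.70, 1.15 and 1.52 in DIO-R, at 1.09, 1.22 and 1.59 in DIO and at 0.23, 0.80 and 0.85 in Lean. Every DIO sample was above every Lean sample, while DIO-R and Lean overlapped. DIO was 0.63 ± 0.12 higher than Lean (1.55-fold, adjusted p = 0.0894), the smallest adjusted p of the set, and DIO-R was 0.46 ± 0.12 higher than Lean (adjusted p = 0.188). DIO-R was 0.17 below DIO on average, with a 95% interval of -0.42 to 0.08. Rrm1, the other subunit, differed by 0.27 ± 0.10 in DIO against Lean. Tyms, the thymidylate synthase, was the exception among S phase genes, with differences of -0.03 ± 0.18 in DIO and 0.02 ± 0.18 in DIO-R from Lean.

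Pcna, the sliding clamp of DNA polymerases, was among the brighter genes, at 3.24, 3.46 and 3.80 in DIO-R, 2.90, 3.45 and 3.76 in DIO and 2.99, 3.17 and 3.36 in Lean. It was 0.30 ± 0.11 higher in DIO-R than in Lean (adjusted p = 0.392) and 0.23 ± 0.11 higher in DIO (adjusted p = 0.558). Ccnd1, the cyclin that senses growth signals in G1 (probe at mm9 chr7:152116202-152116261), lay at 3.64, 3.87 and 4.06 in DIO-R, at 3.20, 3.76 and 4.00 in DIO and at 3.17, 3.54 and 3.61 in Lean. Every DIO-R sample was above every Lean sample, as held for 0.187% of all genes, and no gene of the set lay wholly below Lean, against 0.116%. DIO-R was 0.38 ± 0.09 higher than Lean (1.30-fold, adjusted p = 0.151) and 0.16 ± 0.09 higher than DIO (adjusted p = 0.546), the last being 0.09 without DIO sample 10.

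**Figure D4:**
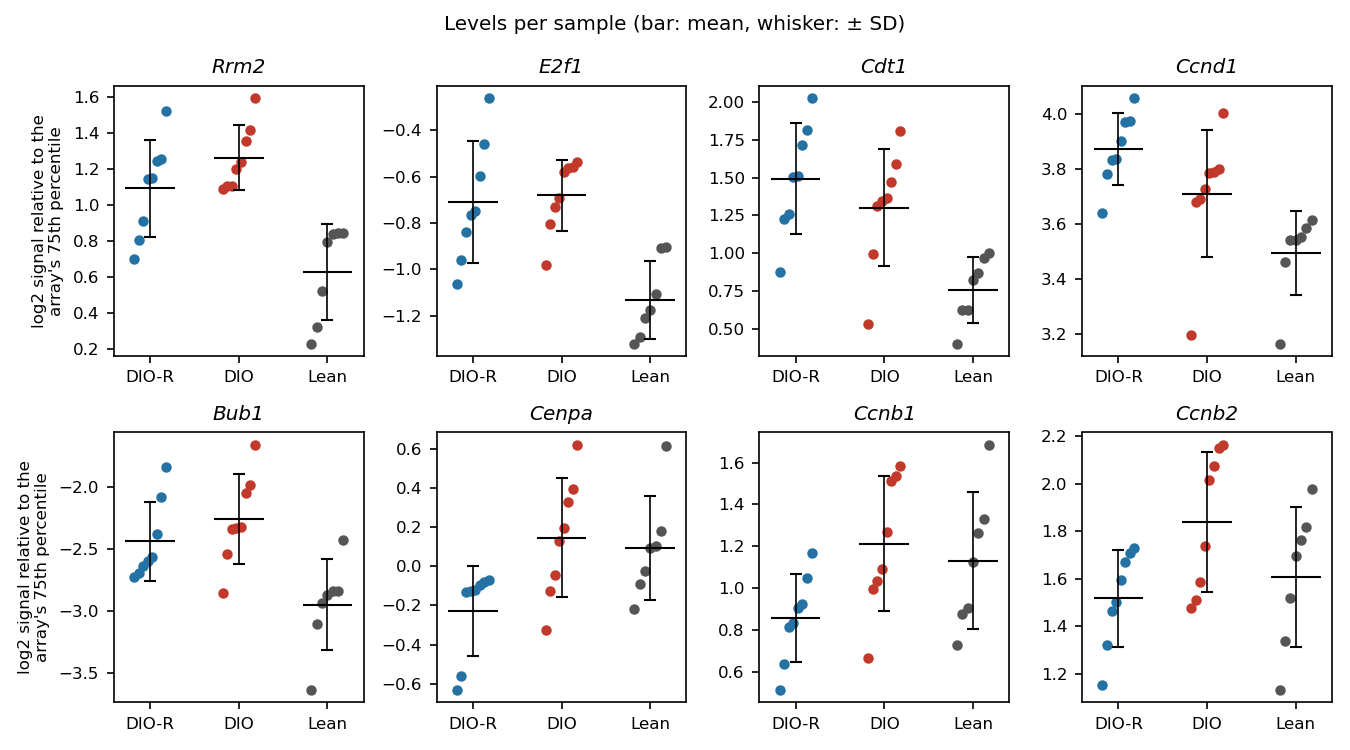
Log2 signal relative to the array's 75th percentile in each sample for 8 genes, with the group mean and SD. Rrm2 in DIO and Ccnd1 in DIO-R lie above all Lean samples, and Cenpa, Ccnb1 and Ccnb2 have their lowest group mean in DIO-R.

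The spindle checkpoint kinases come first among the mitosis genes. Bub1, a kinetochore kinase of the checkpoint (probe at mm9 chr2:127626988-127627047), lay at -2.73, -2.58 and -1.83 in DIO-R, at -2.86, -2.32 and -1.66 in DIO and at -3.64, -2.87 and -2.43 in Lean. It was 0.69 ± 0.18 higher in DIO than in Lean (1.62-fold, adjusted p = 0.194) and 0.51 ± 0.18 higher in DIO-R than in Lean (adjusted p = 0.357), with 8 of 8 samples of each above the Lean mean. With normexp background correction the Bub1 difference in DIO against Lean was 0.35. Bub1b, its relative that inhibits Cdc20, lay at -1.78, -1.37 and -1.01 in DIO-R, at -1.57, -1.05 and -0.76 in DIO and at -1.96, -1.57 and -1.08 in Lean. Ttk, the kinase that starts checkpoint signalling, was dim, at -4.83, -4.44 and -3.91 in DIO-R, -4.74, -3.98 and -3.36 in DIO and -5.87, -4.34 and -4.15 in Lean. DIO was 0.44 ± 0.14 higher than Lean in Bub1b (adjusted p = 0.326) and 0.63 ± 0.24 in Ttk (adjusted p = 0.423), with overlap in both. The Ttk difference was 0.13 with normexp and 0.42 without Lean sample 10.

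Mki67, the antigen used to count cycling cells (probe at mm9 chr7:142881591-142881650), lay at 2.29, 2.47 and 2.89 in DIO-R, at 2.21, 2.69 and 3.20 in DIO and at 1.82, 2.38 and 2.87 in Lean. It was 0.38 ± 0.14 higher in DIO than in Lean (adjusted p = 0.434), 0.16 lower in DIO-R than in DIO and 0.21 higher in DIO-R than in Lean, and the groups overlapped throughout. The Mki67 difference in DIO-R against DIO was -0.09 without DIO sample 3, and that in DIO-R against Lean was 0.13 without Lean sample 6. Birc5, the survivin subunit of the chromosomal passenger complex, differed by 0.39 ± 0.14 in DIO against Lean (adjusted p = 0.377) and by -0.24 ± 0.13 in DIO-R against DIO. It lay at 2.25, 2.44 and 2.67 in DIO-R, at 2.14, 2.72 and 3.06 in DIO and at 1.88, 2.36 and 2.83 in Lean.

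Cdk1, the kinase that drives entry into mitosis, lay at -1.52, -1.30 and -0.88 in DIO-R, at -1.57, -1.002 and -0.58 in DIO and at -1.74, -1.54 and -1.10 in Lean. DIO was 0.39 ± 0.15 higher than Lean (adjusted p = 0.425) and DIO-R 0.24 lower than DIO. A second Cdk1 probe, well above background on 22 arrays, differed the other way, by -0.21 and 0.34 in those comparisons, and a second probe for the spindle protein Tpx2 by -0.18 and 0.39, so the direction of both genes depends on the probe. Cyclin B1 and B2, the partners of Cdk1, were lower in every DIO-R sample than the DIO mean. Ccnb1 (probe at mm9 chr13:101548722-101548781) lay at 0.51, 0.87 and 1.17 in DIO-R, at 0.66, 1.18 and 1.58 in DIO and at 0.73, 1.12 and 1.69 in Lean. Its difference was -0.36 ± 0.14 in DIO-R against DIO (adjusted p = 0.485) and its other probes gave -0.43 and -0.40. Ccnb2 lay at 1.15, 1.55 and 1.73 in DIO-R, at 1.48, 1.88 and 2.16 in DIO and at 1.13, 1.70 and 1.98 in Lean, a difference of -0.32 ± 0.13 in DIO-R against DIO (adjusted p = 0.488).

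The smallest p of the set in DIO-R against DIO was that of Cenpa, the histone that marks centromeres (probe at mm9 chr5:30974916-30975386). It lay at -0.63, -0.13 and -0.07 in DIO-R, at -0.32, 0.16 and 0.62 in DIO and at -0.22, 0.09 and 0.61 in Lean. DIO-R was 0.37 ± 0.13 lower than DIO (1.30-fold, adjusted p = 0.479) and 0.32 ± 0.14 lower than Lean (unadjusted p = 0.0291), with 8 of 8 DIO-R samples below each of the other means and the groups still overlapping. Foxm1, the factor of the mitotic wave, lay at -1.23, -1.09 and -0.80 in DIO-R, at -1.08, -0.82 and -0.60 in DIO and at -1.50, -1.05 and -0.59 in Lean, a difference of -0.24 ± 0.10 in DIO-R against DIO (adjusted p = 0.492). Ube2c, the ubiquitin-conjugating enzyme of the anaphase-promoting complex, lay at 0.27, 0.66 and 1.00 in DIO-R, at 0.50, 0.94 and 1.41 in DIO and at 0.49, 0.82 and 1.33 in Lean, a difference of -0.30 ± 0.13 in DIO-R against DIO (adjusted p = 0.499).

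Cenpf, a kinetochore protein, was the only mitosis gene with a lower mean in DIO than in Lean, and it was one of the dimmest. It lay at -5.10, -4.74 and -3.94 in DIO-R, at -4.91, -4.49 and -4.07 in DIO and at -5.13, -4.23 and -2.59 in Lean, and Lean samples 4 and 9 stood above the rest of their group, at -2.59 and -2.81. Its difference of -0.60 ± 0.32 in DIO-R against Lean (adjusted p = 0.607) was -0.36 without Lean sample 4 and -0.39 without Lean sample 9. The remaining mitosis genes, Top2a, Ccna2, Cdc20, Plk1, Aurka, Kif11, Kif20a, Cenpe, Nusap1, Tpx2 and Cdca8, differed by 0.09 (Cdc20) to 0.37 (Top2a and Kif11) in DIO against Lean. In DIO-R against DIO they differed by -0.31 (Plk1, the polo kinase) to -0.12 (Tpx2), and in DIO-R against Lean by -0.21 (Cdc20) to 0.17 (Tpx2), none with an adjusted p under 0.05.

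Genes of the pathway outside the set were counted in 4 further lists. These lists were also chosen with earlier results known and come from the same samples, so they are no independent support. Of 49 tested further DNA replication genes, 45 were higher in DIO than in Lean (median 0.35), against 41.1% of all genes, and 30 of them had an unadjusted p under 0.05, against 4.05% of all genes. In DIO-R 46 were higher than in Lean (median 0.27), against 44.6% of all genes, and 27 of them had an unadjusted p under 0.05, against 4.43%. Between DIO-R and DIO 23 of 49 were higher (median -0.01), against 51.7% of all genes. Tk1, the thymidine kinase, was 0.80 ± 0.18 higher in DIO than in Lean (adjusted p = 0.151), and Pole2, a subunit of DNA polymerase epsilon, 0.47 ± 0.10 higher (adjusted p = 0.11). In DIO-R against Lean, Exo1, a nuclease of mismatch repair, differed by 0.94 ± 0.20 (adjusted p = 0.0813), E2f7, a repressing E2F factor, by 0.91 ± 0.21 (adjusted p = 0.105), and Timeless, a replication fork protein, by 0.60 ± 0.14 (adjusted p = 0.105). In DIO-R against DIO, Pole2 differed by -0.20, E2f8 by -0.21 and Orc6 by 0.19.

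Of 58 further mitosis genes, 54 were higher in DIO than in Lean (median 0.27), against 41.1% of all genes, and 49 were higher in DIO-R than in Lean (median 0.13), against 44.6%. In DIO-R 48 were lower than in DIO (median -0.13), against 48.3% of all genes, and 6 of them had an unadjusted p under 0.05, against 3.79%. The 3 smallest p-values among them in DIO against Lean were those of Cdca5, a cohesin regulator (0.62 ± 0.15, adjusted p = 0.164), Ncaph, a condensin subunit (0.47), and Espl1, the separase (0.50). In DIO-R against DIO they were those of Cdc25c, the phosphatase that activates Cdk1 (-0.36 ± 0.14, adjusted p = 0.485), and the kinetochore genes Ndc80 (-0.34) and Nuf2 (-0.35). In DIO-R against Lean, Cenpm, Smc2 and Cenpn differed by 0.54, 0.44 and 0.46. The shift of the further mitosis genes in DIO-R against DIO was smaller than that of the 23 in the set, a difference that was not tested.

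The 9 genes of G1 cyclins and kinases had medians of 0.09 in DIO against Lean, 0.09 in DIO-R against DIO and 0.20 in DIO-R against Lean, with 8, 7 and 8 of 9 higher, against 41.1%, 51.7% and 44.6% of all genes. Ccnd2, a second D cyclin, was 0.42 ± 0.11 higher in DIO-R than in Lean (adjusted p = 0.194) and 0.26 ± 0.11 higher in DIO (adjusted p = 0.50). Ccnd3, the third D cyclin, differed from Lean by 0.19 in DIO-R and 0.13 in DIO, Cdk6 by 0.64 ± 0.47 in DIO, and Skp2 by 0.34 in DIO-R. Between DIO-R and DIO, Myc, a growth factor-driven transcription factor, differed by 0.28 ± 0.11 (adjusted p = 0.479), Skp2 by 0.18 and Cdk2 by 0.15.

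The list of 25 inhibitors and cell cycle exit genes is mixed, as it also holds the MuvB genes Lin9, Lin37, Lin52 and Lin54, and Mdm2. Of the 25 genes, 17 were lower in DIO than in Lean (median -0.06), against 58.9% of all genes. In DIO-R 17 were higher than in DIO (median 0.09), against 51.7%. Cdkn1a, which encodes the kinase inhibitor p21, was 0.39 ± 0.10 lower in DIO than in Lean (adjusted p = 0.184) and 0.30 ± 0.10 lower in DIO-R than in Lean (adjusted p = 0.301). The antiproliferative genes Btg1 and Tob1 differed by -0.18 and -0.35 in DIO against Lean. In DIO-R against DIO, Btg2, of the same family, was 0.37 ± 0.11 higher (adjusted p = 0.367), Btg1 0.18 higher and Lin54, a MuvB subunit that binds CHR elements, 0.21 higher. In DIO-R against Lean, Pkmyt1, which inhibits Cdk1, differed by 0.31 and Rbl1, a retinoblastoma relative, by 0.41. None of the genes named from these 4 lists had an adjusted p under 0.05.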

How the data were processed

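Messenger RNA was measured in 23 samples on 1-colour Agilent arrays from 25 ng of total RNA, per the labels' protocols. The deposited intensity of each spot was background-subtracted within its array with Feature Extraction 10.10.1.1 software (Agilent), per the file headers, and was not set equal between arrays. Probe positions are of mouse build mm9, per the file headers, and the well-above-background flags were taken as given for each spot in the same files. The authors deposited log2 values of 35829 probes, whose normalization is not given in the sources used here; it was used as an alternative. Its array medians lay between 7.63 and 7.64.

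Values analysed were log2 intensity minus the array's 75th percentile over its 62976 spots less 3671 controls. Outlier spots were left out and spots of a probe averaged. Each gene took its brightest probe by mean over all arrays, kept if well above background on at least 7 of 23 arrays (28365 genes). Gene symbols were updated by accession for 2160 of 20229 matched symbols.

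Groups were compared with limma 3.58.1 (R 4.3.3), using two-sided lmFit and eBayes tests of group means without covariates, with Benjamini-Hochberg adjustment over all genes kept and a threshold of 0.05. The code was tested on simulated data. Arrays carry no read depth, and precision is limited by the 7 or 8 arrays of a group. Files were read with data.table (version 1.17.8) and plots drawn with Python 3.11.15 and matplotlib 3.10.9. The genes and lists were chosen with earlier results of these data known. Named were Mki67, Pcna, Ccnd1, and, in each comparison, the 5 S phase and 5 mitosis genes with the smallest p, and the 3 genes with the smallest p of each other list, except for items that are not reported here. Alternatives were other background correction, scaling and normalization, the deposited table, probe and gene filters, slide and replicate blocks, other variance estimates, each slide alone and each array left out.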

Additional observations from a re-analysis of the deposited data

Results flagged for a closer look

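Each group's highest and lowest sample was compared with the rest for the 38 tested genes, and 3 of 114 groups had a sample that stood apart. Chance gives about 1 in 20. Ttk was lowest in Lean sample 10, at -5.87, where the next Lean sample lay at -4.68, so that the gap took 0.692 of the range. Without Lean sample 10 the Ttk difference in DIO against Lean was 0.42. Ccnd1 was lowest in DIO sample 10, at 3.20, with the next DIO sample at 3.68 and a gap of 0.596 of the range. Without DIO sample 10 the Ccnd1 difference in DIO-R against DIO was 0.09. Ccnd1 was also lowest in Lean sample 7, at 3.17, with the next Lean sample at 3.46 and a gap of 0.662 of the range. Without Lean sample 7 the Ccnd1 difference in DIO-R against Lean was 0.32, and in DIO against Lean 0.16.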

How the results depend on the processing

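All 453 values of the named genes under other settings, and all 874 with an array left out, kept their direction. Most of these genes were named for their small p in the same comparison, so this is no independent support. Leaving out an array of a group outside a comparison cannot change its difference, and no setting took another single probe. Other settings moved by over 1.5 times, in DIO against Lean, Ttk (0.13 to 0.68), Bub1 (0.35 to 0.73) and Cdk1 (0.11 to 0.43), in DIO-R against DIO, Cdt1 (0.09 to 0.21), Cdc6 (0.09 to 0.27) and Pcna (0.03 to 0.10), and in DIO-R against Lean, Cdc6 (0.28 to 1.02), Bub1 (0.24 to 0.57) and Cenpf (-0.73 to -0.27). Leaving out an array also moved by over 1.5 times, in DIO-R against DIO, Pcna (0.0063 without DIO sample 6 to 0.13 without DIO sample 3) and Cdc6 (0.16 without DIO sample 6 or DIO-R sample 5), and in DIO-R against Lean, Ccnb1 (-0.18 without Lean sample 3) and the median of all 38 genes (0.09 without Lean sample 10 to 0.24 without Lean sample 3). The S phase medians in DIO against Lean and DIO-R against Lean and the mitosis median in DIO-R against DIO kept their sign (0.32 to 0.51, 0.30 to 0.75 and -0.44 to -0.15 over 15 settings). The S phase median in DIO-R against DIO kept its sign in 14 of 15 settings and the mitosis median in DIO-R against Lean in 13 of 15; with an array left out they ran from 0.0045 to 0.12 and from -0.0034 to 0.13. The mitosis median was 0.00933 within slide 3 in DIO against Lean and 0.37 within slide 2 in DIO-R against Lean, where the median of all 38 genes was 0.42. Counts over all genes moved most. In DIO against Lean (1 gene called) normexp gave 2, the authors' deposited values 9, the slide block 3, trended and robust variances 3 and array weights 61, and leaving out an array 1 to 37 (37 without DIO sample 6, 17 without Lean sample 7, 8 without DIO-R sample 6, 3 without DIO sample 3, 2 without DIO-R sample 2 or 3). In DIO-R against DIO (17) quantile normalization gave 27, the authors' deposited values 26 and array weights 38, and leaving out an array 11 to 24 (11 without DIO sample 1, 6 or 8 or DIO-R sample 5, 8 or 10). In DIO-R against Lean (36) median scaling gave 19 and array weights 109, and leaving out an array 26 to 64 (64 without Lean sample 3). Of the set at an unadjusted p under 0.05, the 25 genes higher in DIO were 16 to 31 with an array left out, the 8 lower in DIO-R than in DIO were 2 with median scaling, 5 with the authors' deposited values and 2 to 18 with an array left out, and those higher there (0) were 0 to 2, with 1 without DIO sample 1 or DIO-R sample 3 or 7 and 2 without DIO sample 3. The 1 gene lower in DIO-R than in Lean became 2 with normexp, 0 with median scaling, 3 with array weights and 0 to 3 with an array left out. An adjusted p under 0.05 was reached for Rrm2 in DIO against Lean with array weights (0.60, adjusted p = 0.0425) and without DIO sample 6 (0.66, 0.0452), and in DIO-R against Lean for Ccne1 with array weights (0.74, 0.0472), Cdt1 without DIO sample 6 (0.73, 0.0422) or DIO-R sample 7 (0.82, 0.0423) and Ccnd1 without DIO sample 10 (0.38, 0.0425). DIO samples 6 and 10 have no part in the difference of DIO-R from Lean, which was unchanged without them. Only the spread, estimated over all groups, and the adjustment moved there. Samples with the same number did not deviate together more than others (median correlation -0.03 over 18 pairs, 4 of them over 0.1). Pairs with different numbers had a median of -0.02 over 158 pairs, 48 of them over 0.1. These correlations cannot exclude a weak pairing by number, and the main fit used none. With the replicate block the calls over all genes were 0, 4 and 9 in the 3 comparisons, the set held 16 genes higher in DIO than in Lean, 1 higher in DIO-R than in DIO and 2 lower in DIO-R than in Lean. Dim probes (Ttk, Cenpf, Cdc6) carry the least signal over background.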
